A study of Rattus norvegicus with 192 samples.

Results

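The 10 apolipoprotein genes Apoa1, Apoa2, Apoa4, Apoa5, Apob, Apoc1, Apoc2, Apoc3, Apoe and Apoh were described across 4 rat tissues, out of 17483 genes in the count tables. They were taken by symbol, and all 10 were present. The samples were liver, thyroid, pituitary and hypothalamus of adult male wild type Crl:CD(SD) rats, housed under a reversed light/dark cycle. Corn oil was the carrier for every group, and gavage was daily for 7 days, over postnatal days 56 to 62. The groups were vancomycin at 8 mg per kg body weight together with PFOS at 3 mg per kg (the combination), PFOS alone, vancomycin alone, and corn oil alone (vehicle). PFOS is perfluorooctane sulfonate, a persistent perfluorinated surfactant, and vancomycin is a glycopeptide antibiotic that is poorly absorbed from the gut. The assay was BRB-seq, a 3' end method that gives the RNA of every sample its own barcode and then pools the samples. Levels are CPM, a gene's counts per 1000000 counts of its library.

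Apolipoproteins are the protein part of the particles that carry cholesterol and triglycerides in blood. The liver secretes triglyceride-rich particles built on ApoB and also makes ApoA-I, on which high density lipoprotein (HDL) forms. The small ApoC proteins and ApoA-V tune how fast lipoprotein lipase clears triglycerides, and ApoE binds the receptors through which remnants are taken up. ApoE is also made in the brain, mainly by astrocytes.

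Several of these genes lie next to each other. On chromosome 8 of the RefSeq assembly GRCr8, Apoa1, Apoc3, Apoa4 and Apoa5 were consecutive protein-coding genes, and on chromosome 1 Apoc2, Apoc4, Apoc1 and Apoe were consecutive. RefSeq promoter windows of GRCr8, from 250 bases before to 50 after the annotated start, matched 6 members (Apoa4, Apoa5, Apoc1, Apoc2, Apoe and Apoh). The windows of Apoa4 and Apoe are printed because their liver levels were the pair of members that varied most together once group means were taken off, and that of Apoa5 because it neighbours Apoa4. They lie at chr8:55435529-55435828 on the + strand (Apoa4), chr8:55457621-55457920 on the + strand (Apoa5) and chr1:88484650-88484949 on the - strand (Apoe). Capitals mark the letters TATAAA of the TATA box, AGGTCA bound by many nuclear receptors, GGGCGG of the GC box and GTTAAT from the site of the liver factor HNF1, each searched on both strands. None of these 4 motifs contains another.
Apoa4: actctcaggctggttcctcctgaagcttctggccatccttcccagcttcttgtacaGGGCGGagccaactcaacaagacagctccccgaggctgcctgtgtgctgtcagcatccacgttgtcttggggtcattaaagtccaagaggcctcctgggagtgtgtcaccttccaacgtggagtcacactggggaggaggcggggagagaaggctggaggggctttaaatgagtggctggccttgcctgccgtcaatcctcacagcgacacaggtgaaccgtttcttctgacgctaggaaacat
Apoa5: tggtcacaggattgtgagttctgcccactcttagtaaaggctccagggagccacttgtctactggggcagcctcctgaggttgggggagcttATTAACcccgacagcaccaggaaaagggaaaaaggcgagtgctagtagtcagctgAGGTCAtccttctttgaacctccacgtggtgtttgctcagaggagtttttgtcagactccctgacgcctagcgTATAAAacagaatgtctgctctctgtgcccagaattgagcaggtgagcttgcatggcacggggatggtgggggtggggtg
Apoe: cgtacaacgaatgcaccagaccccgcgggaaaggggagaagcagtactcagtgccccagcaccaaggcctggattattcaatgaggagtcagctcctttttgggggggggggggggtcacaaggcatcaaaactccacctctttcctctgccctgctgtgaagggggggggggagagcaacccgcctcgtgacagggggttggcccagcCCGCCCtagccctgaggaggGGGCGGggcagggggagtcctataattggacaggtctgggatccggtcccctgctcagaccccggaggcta
Of all 33469 windows in that table, 14.2% held the TATA box letters, 16.2% the nuclear receptor letters, 33.1% the GC box letters and 7.45% the HNF1 letters. Apoa5 had 2 annotated starts and Apoe 3, of which the window with the most matches was taken, while Apoa4 had 1. The matches of Apoa5 and Apoe were thus picked by the same search and cannot be set against these shares. The Apoa5 window held TATAAA at -30, AGGTCA at -103 and the reverse complement of GTTAAT at -158 from the start. Apoe held GC box letters at -41 and -21 and none of the other motifs, and Apoa4 held the GC box letters at -194 only.

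Each treatment had 12 libraries per tissue, and libraries under 100000 counts were left out. Of 192 libraries 178 stayed, with 10, 8, 10 and 9 livers of the combination, PFOS, vancomycin and vehicle groups, 11, 12, 12 and 12 hypothalami, 12, 10, 12 and 12 thyroids, and 12 pituitaries in each group. Kept totals ran from 106742 to 3387946 counts, with medians of 481289 in liver, 501447 in thyroid, 517282 in pituitary and 726925 in hypothalamus. The plate rows of a tissue each held a single treatment, so row and treatment cannot be told apart. The animal number is the number in a library's title. It is taken here to name the same rat in each tissue, which the titles do not state. Hypothalamus and thyroid libraries of the same animal number shared a well position and barcode, as did pituitary and liver libraries. Of the kept vehicle livers, 5 of 9 had a barcode with an unusual number of G and C bases for the tissue. So did 5 of 12 vehicle pituitaries, 5 of 12 combination thyroids and 4 of 11 combination hypothalami. In every other group of these tissues 0 kept libraries had one. Such barcodes thus fell in a single group of each tissue and cannot be fully told apart from its treatment. Tissue markers were found where they belong: Alb averaged 63954 CPM in liver, Tg 53299 CPM in thyroid, Gh1 291101 CPM in pituitary and Snap25 1128 CPM in hypothalamus. Tg also stood at 1107 CPM in liver libraries, Alb at 527 CPM in thyroid libraries and Gh1 at 4467 CPM in hypothalamus libraries. Thyroid and liver were on plate 2, and hypothalamus and pituitary on plate 1.

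In liver the 10 genes made up a large and steady part of the RNA. Together they took 9.62% ± 0.73 of the counts in combination livers, 9.25% ± 1.20 in PFOS livers, 9.44% ± 0.72 in vancomycin livers and 9.42% ± 0.83 in vehicle livers (SD, n = 10, 8, 10 and 9). The sum of the family thus differed between groups by less than the spread within them. Within that sum, Apoa1 was lower in both groups that received PFOS.

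**Figure D1:**
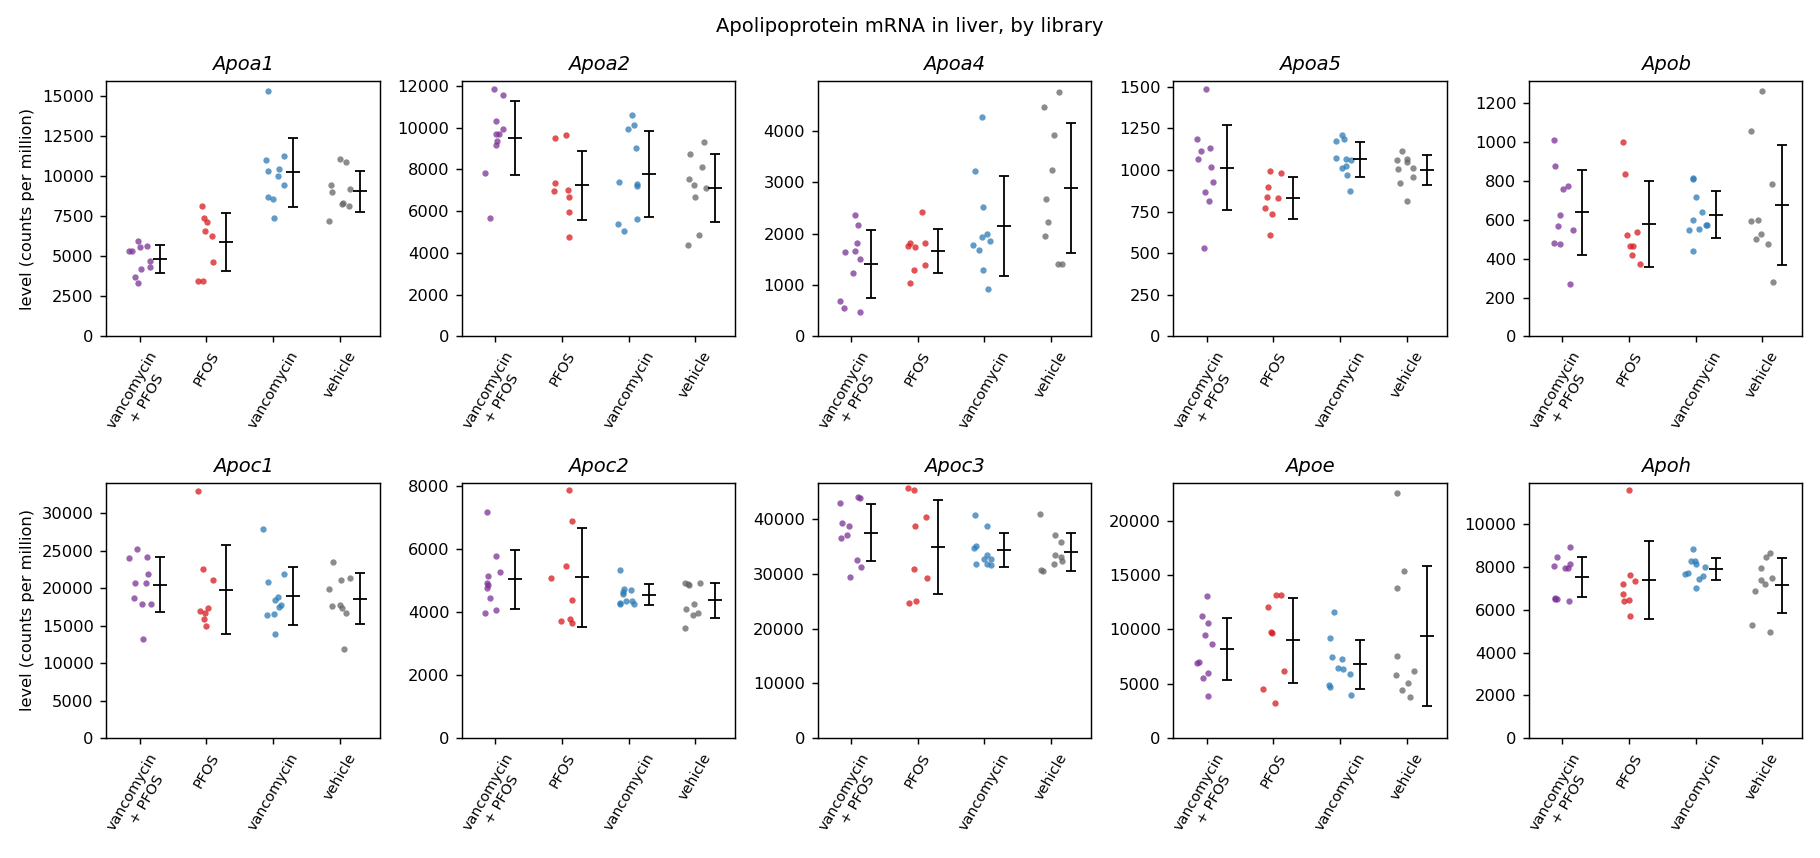
Levels of the 10 apolipoprotein genes in liver in CPM (vertical axes, from 0), by treatment. Each point is a library and the bar at the right of each group gives the mean and SD; every combination library lies below every vancomycin and every vehicle library in Apoa1, which holds in no other panel.

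Apoa1 encodes ApoA-I, the main structural protein of HDL. Its level ran from 3330 to 5921 CPM with a median of 5025 in combination livers and from 3455 to 8131 CPM with a median of 6399 in PFOS livers. It ran from 7390 to 15318 CPM with a median of 10175 in vancomycin livers and from 7194 to 11060 CPM with a median of 9025 in vehicle livers. The combination group did not overlap either group without PFOS, and 6 of 8 PFOS livers lay below all vehicle livers. Group means were 4819 ± 890 CPM in combination, 5878 ± 1802 in PFOS, 10243 ± 2146 in vancomycin and 9054 ± 1274 in vehicle livers (SD).

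Apoa1 was the single member that passed the test in liver, where "called", "rose" and "fell" mean an adjusted p under 0.05 in edgeR's quasi-likelihood test over all 3250 genes tested. It fell by 1.12 on the log2 scale in combination against vancomycin livers (SE 0.15, adjusted p = 7.6e-07). Against vehicle it fell by 0.91 in combination livers (SE 0.15, adjusted p = 0.00013) and by 0.65 in PFOS livers (SE 0.16, adjusted p = 0.0304). The mean in combination livers was 0.470 times that in vancomycin livers. In the same 3 comparisons, 0.923%, 0.769% and 0.831% of all genes tested were called in either direction, and 0.0923%, 0.338% and 0.4% were called lower, against 1 of 10 members each time. Combination and PFOS livers are set against the same vehicle libraries in the last pair, so those 2 results are not independent. Apoa1 was the 1 gene of 3250 (0.0308%) with every combination library below every vancomycin library, and 1 of 2 genes (0.0615%) with every combination library below every vehicle library. The p-values measure the spread between libraries of separate animal numbers, and in bulk RNA fewer cells of a type and less RNA per cell cannot be told apart.

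The call of Apoa1 under PFOS alone was lost without a filter on low counts (adjusted p = 0.336), with a minimum depth of 500000 counts (0.481), with all libraries kept (0.397), without the libraries of unusual barcode GC content (0.507) and in 8 of 37 fits that each left out 1 library, while the log2 fold change stayed between -0.76 and -0.58. The combination call against vancomycin stayed in 37 of 37 such fits and was lost with all libraries kept (log2 fold change -1.11, adjusted p = 0.0998). That against vehicle also stayed in 37 of 37 and was lost with the depth minimum (-0.86, adjusted p = 0.256) and with all libraries kept (-0.86, adjusted p = 0.303).

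Scaling Apoa1 to other liver transcripts gave the same order of group means, but not always groups without overlap. Per 1000 counts of its neighbour Apoc3, it had 130 ± 28 counts in combination, 184 ± 84 in PFOS, 302 ± 75 in vancomycin and 270 ± 53 in vehicle livers (SD). Per 1000 counts of Alb, the plasma carrier albumin, it had 89.2 ± 29.4 in combination, 97.0 ± 39.6 in PFOS, 154 ± 30 in vancomycin and 135 ± 22 in vehicle livers. The highest combination liver had 164 per 1000 Apoc3 counts, below the lowest vancomycin (210) and vehicle (201) livers. Per 1000 Alb counts it had 148, above the lowest vancomycin (120) and vehicle (112) livers. Per 1000 counts of Apoa2 it had 998, above the lowest vancomycin (730) and vehicle (873) livers. Alb itself averaged 56811 ± 12162 CPM in combination, 65188 ± 16383 in PFOS, 66699 ± 5427 in vancomycin and 67744 ± 9637 in vehicle livers, and was not called in any of these comparisons.

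**Figure D2:**
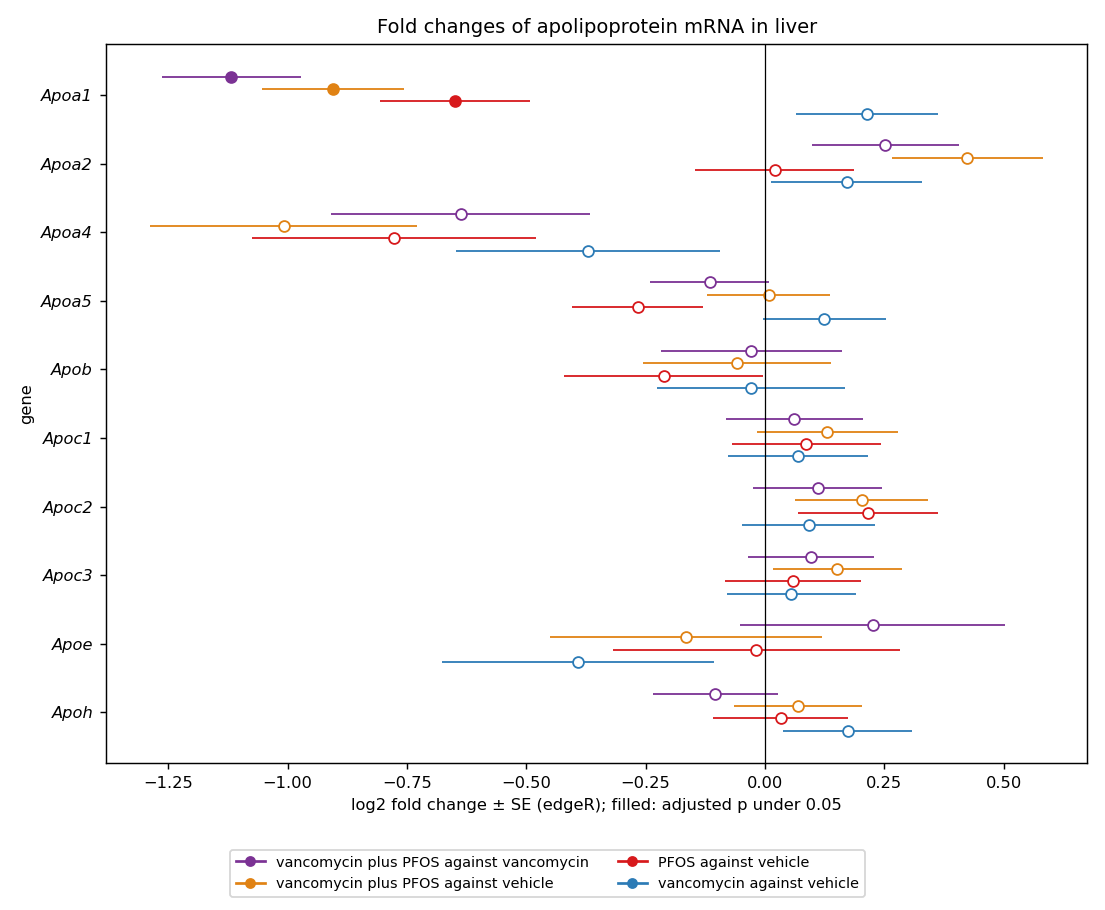
Log2 fold changes with standard errors (horizontal axis) of the 10 genes (rows) in liver for 4 comparisons, from edgeR; filled points have an adjusted p under 0.05. The 3 filled points are Apoa1, at -1.12, -0.91 and -0.65, while the open points of Apoa4 reach -1.01 with wider bars.

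Apoa2 and Apoa4 are further HDL apolipoproteins. Apoa2, the second structural protein of HDL, ran from 5663 to 11861 CPM in combination, 4778 to 9634 in PFOS, 5051 to 10619 in vancomycin and 4369 to 9317 in vehicle livers. It stood at a log2 fold change of 0.42 in combination against vehicle livers (SE 0.16, adjusted p = 0.307) and 0.40 in combination against PFOS livers (SE 0.16, adjusted p = 1.0), and the groups overlapped. Apoa4, made in rodent liver as well as intestine, ran from 475 to 2370 CPM with a median of 1578 in combination livers and from 1045 to 2420 CPM with a median of 1749 in PFOS livers. It ran from 926 to 4257 CPM with a median of 1895 in vancomycin and from 1402 to 4750 CPM with a median of 2672 in vehicle livers. Each of the 10 combination and 8 PFOS livers lay below the vehicle mean of Apoa4, but the groups overlapped. Its log2 fold changes were -1.01 (SE 0.28, adjusted p = 0.0774) in combination against vehicle, -0.78 (SE 0.30, adjusted p = 0.287) in PFOS against vehicle and -0.64 (SE 0.27, adjusted p = 0.467) in combination against vancomycin livers. DESeq2 put the first of these under the threshold (adjusted p = 0.0279), as did log2 depth as a covariate (0.0418).

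The genes for triglyceride handling were not called. Apoa5, an activator of triglyceride clearance, averaged 1014 ± 254 CPM in combination, 833 ± 127 in PFOS, 1064 ± 105 in vancomycin and 999 ± 91 in vehicle livers, with a log2 fold change of -0.27 (SE 0.14, adjusted p = 0.476) in PFOS against vehicle livers. Apoc3, an inhibitor of that clearance, averaged 37549 ± 5235 CPM in combination, 34977 ± 8587 in PFOS, 34349 ± 3094 in vancomycin and 33993 ± 3395 in vehicle livers. Apoc2, the cofactor of lipoprotein lipase, averaged 5036 ± 926 CPM in combination, 5100 ± 1573 in PFOS, 4546 ± 335 in vancomycin and 4365 ± 543 in vehicle livers. Apoc1, which also slows particle uptake, averaged 20459 ± 3646 CPM in combination, 19815 ± 5919 in PFOS, 18993 ± 3862 in vancomycin and 18582 ± 3395 in vehicle livers. For these 4 genes the log2 fold changes lay between -0.27 and 0.21 in the 3 comparisons with PFOS.

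Apob, the scaffold of very low density lipoprotein, averaged 639 ± 218 CPM in combination, 577 ± 220 in PFOS, 628 ± 121 in vancomycin and 676 ± 309 in vehicle livers. Apoh, the phospholipid-binding beta-2 glycoprotein I, averaged 7534 ± 956 CPM in combination, 7387 ± 1811 in PFOS, 7900 ± 517 in vancomycin and 7144 ± 1281 in vehicle livers. Apoe averaged 8235 ± 2858 CPM in combination, 8990 ± 3899 in PFOS, 6802 ± 2270 in vancomycin and 9399 ± 6415 in vehicle livers, where it ran from 3787 to 22512 CPM. No difference in these 3 genes passed the test. Over the 10 members the median log2 fold change was 0.02 in combination against vancomycin, 0.04 in combination against vehicle and 0.00 in PFOS against vehicle livers, beside 0.01, -0.02 and -0.02 over all genes tested.

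Vancomycin alone changed no member past the threshold: 0 of 10 members and 0 of 3250 genes (0.0%) were called by edgeR or by DESeq2 against vehicle, where 98 genes and 0 members had an unadjusted p under 0.05 in edgeR. Apoa1 stood at 0.21 on the log2 scale there (SE 0.15) and Apoe at -0.39 (SE 0.28). The difference of the PFOS effect with and without vancomycin was not called for any member (0.0% of all genes). For Apoa1 that interaction was -0.47 (SE 0.21, adjusted p = 1.0), and for combination against PFOS livers the log2 fold change was -0.26 (SE 0.15, adjusted p = 1.0).

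Members differed in how much they varied from library to library within a group. The SD of log2 CPM within liver groups was 0.66 for both Apoe and Apoa4, against 0.25 to 0.46 for the other 8 members and a median of 0.37 over the 215 genes at least as abundant as Apob. Apoe and Apoa4 also varied together: over 37 livers with group means taken off, their Pearson r was 0.739. Apoc1 and Apoc2, which lie on chromosome 1 with Apoc4 between them, had r = 0.736, and Apoa2 and Apoc1, which are not neighbours, had r = 0.619. With group means left in, Apoc1 and Apoc2 had r = 0.739 and Apoe and Apoa4 r = 0.586. On the same measure Apoa1 had r = -0.203 with its neighbour Apoc3 and r = 0.345 with Apoa4, which lies beyond Apoc3 on chromosome 8. With group means taken off these were -0.22 and -0.13. The genes outside the family most like Apoa1 in these within-group deviations, among 3240, were Dnajb1 (r = 0.499), a heat shock co-chaperone, Sec61g (r = 0.498), a subunit of the translocon through which secreted proteins enter the endoplasmic reticulum, and Dctpp1 (r = 0.486), a nucleotide pyrophosphatase. With group means left in, they were Ahsg (r = 0.718), Pklr (r = 0.670) and Fabp5 (r = 0.661). These values share libraries and depth and are a description.

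Other genes of lipoprotein metabolism in liver did not pass the test. No member of the lists for other apolipoproteins (9 tested), lipoprotein assembly (8), HDL and remodelling (8), clearance (6) and transcription factors of apolipoprotein genes (7) was called in combination against vancomycin, combination against vehicle or PFOS against vehicle livers. Their median log2 fold changes in combination against vehicle livers were -0.18, -0.18, 0.01, 0.08 and -0.07, beside -0.02 over all genes. The assembly gene with the smallest p was Dgat2, which makes triglyceride, at 117 ± 25 CPM in combination and 171 ± 58 in vehicle livers (log2 fold change -0.53, SE 0.15, adjusted p = 0.0846). Hnf4a, a nuclear receptor that drives many apolipoprotein genes, had 87.4 ± 44.9 CPM in combination and 141 ± 63 in vehicle livers (-0.68, SE 0.24, adjusted p = 0.241). Pdzk1, which stabilises the HDL receptor, had 49.0 ± 11.6 CPM in combination and 32.9 ± 11.3 in vancomycin livers (0.54, SE 0.18, adjusted p = 0.258). Apom, an HDL-bound carrier, had 747 ± 114 CPM in PFOS and 1012 ± 217 in vehicle livers (-0.46, SE 0.15, adjusted p = 0.18). Among clearance genes Angptl4, an inhibitor of lipoprotein lipase, had 99.5 ± 74.7 CPM in PFOS and 53.5 ± 43.8 in vehicle livers (0.94, SE 0.42, adjusted p = 0.377).

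Marker lists of the cells in liver moved beside Apoa1 as follows. Of 9 hepatocyte markers 0 were called, with medians of -0.24 in combination against vancomycin, -0.15 in combination against vehicle and -0.20 in PFOS against vehicle livers. Their summed level ran from 10.4% to 15.2% of counts in combination, 10.2% to 16.2% in PFOS, 13.8% to 16.6% in vancomycin and 13.4% to 17.8% in vehicle livers, and none of the 9 was at 0 in any group. Of 5 blood cell markers 0 were called, with a median of -0.70 in combination against vehicle livers, and of 7 macrophage markers 0 were called, with a median of -0.21. Their part in the Apoa1 result was not tested.

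Across the tissues of vehicle rats all 10 genes were highest in liver. Every comparison of tissues is also a comparison of plates, barcode sets or both, and these cannot be told apart from tissue. All 10 were called higher in liver than in hypothalamus, pituitary and thyroid, where 75.4%, 70.6% and 64.8% of 6560 genes were called in either direction. Apoa1, for example, averaged 9054 ± 1274 CPM in liver, 98.3 ± 30.4 in thyroid, 3.47 ± 3.52 in pituitary and 1.17 ± 1.57 in hypothalamus (SD, n = 9, 12, 12 and 12). Apoe had a different order, with 9399 ± 6415 CPM in liver, 5205 ± 1577 in hypothalamus, 746 ± 202 in thyroid and 266 ± 149 in pituitary. Its liver level lay 2.08 above hypothalamus on the log2 scale (SE 0.25, adjusted p = 6.1e-10) with TMM factors and 0.83 above it (SE 0.27, adjusted p = 0.00423) with library totals, the scale of the CPM values. All 10 genes were called in thyroid against hypothalamus (76.1% of all genes), 9 higher in thyroid and Apoe lower by 2.53 (SE 0.25, adjusted p = 1.4e-12). All 10 were called higher in thyroid than in pituitary (68.3% of all genes), where Apoe was lost with a minimum of 500000 counts (0.48, SE 0.31, adjusted p = 0.213). Between pituitary and hypothalamus 7 were called, near the share over all genes (68.2%). In fits of single tissues 8 members failed the filter in hypothalamus and 8 in pituitary, so most entered here through the other tissues. Apoa2 rested on 19 counts in vehicle pituitaries and 2 in vehicle hypothalami, Apoh on 16 and 2, and Apoa5 on 5 and 53. Apoa1, Apoa2, Apoc3 and Apoh were higher in pituitary, Apoe, Apoc1 and Apoa5 were lower there, and Apoa4, Apob and Apoc2 were not called. With library totals Apoa4 was also lower in pituitary (-1.72, adjusted p = 0.0319). Scaling by library totals alone moved the median of all genes from liver against hypothalamus to -1.64, beside -0.22 with TMM factors, and all 10 genes remained higher in liver under both.

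**Figure D3:**
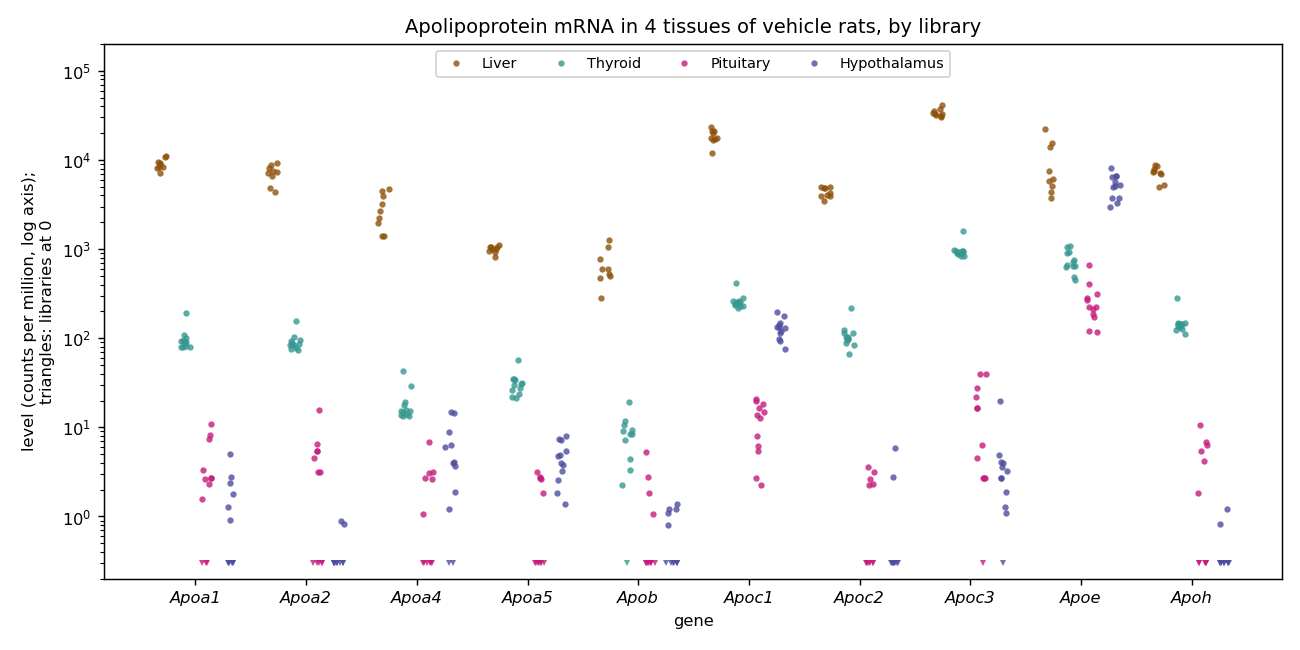
Levels of the 10 genes (horizontal axis) in liver, thyroid, pituitary and hypothalamus of vehicle rats, in CPM on a log axis. Each point is a library and triangles mark libraries at 0; liver is highest for every gene, and only for Apoe do hypothalamus points reach into the liver range.

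Counts outside the liver were set against albumin, which hepatocytes make. Over all kept libraries, 9 genes had 1.11 to 3.71 times as many counts per Alb count in thyroid as in liver, and Apoe 10.1 times. In pituitary 9 genes had 0.797 to 2.71 times the liver ratio, and Apoe 101 times. Hypothalamus held 187 Alb counts in all, and the ratio there was 6445 times that of liver for Apoe and 79.7 times for Apoc1. It was 37.1 for Apoa5, 20.4 for Apoa4 and 9.72 for Apob, on 116, 130 and 18 counts, and 0.174 to 1.75 for Apoa1, Apoa2, Apoc2, Apoc3 and Apoh. In each of the 3 tissues Apoe had the highest such ratio of the 10 genes. The part of RNA from other wells or neighbouring tissue in these low levels was not tested.

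**Figure D4:**
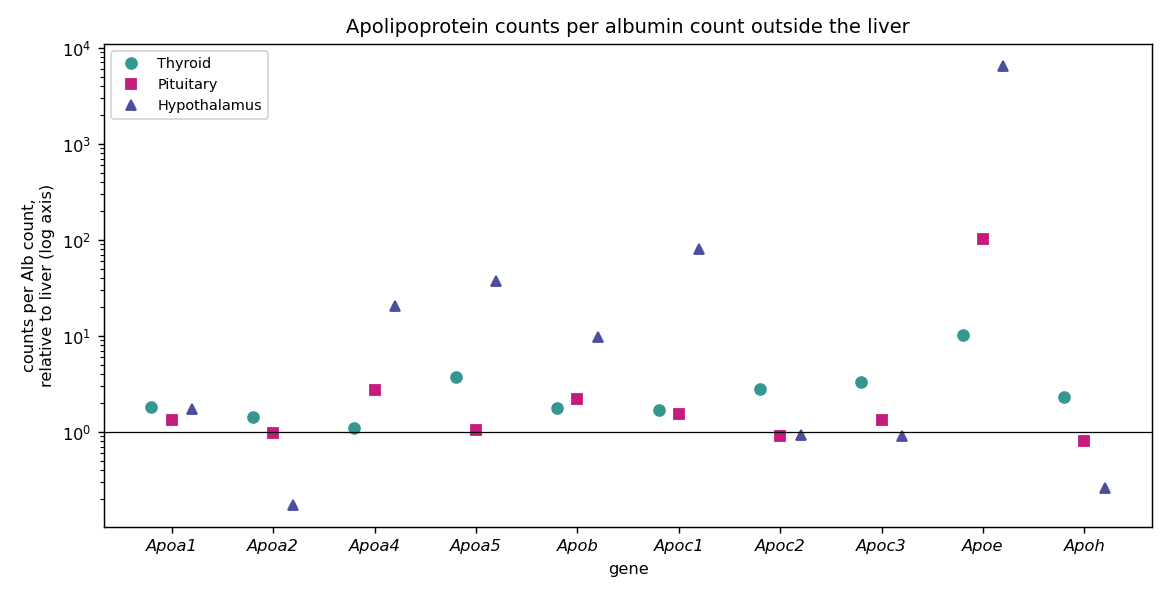
Counts of each gene (horizontal axis) per Alb count in thyroid, pituitary and hypothalamus, divided by the same ratio in liver, on a log axis; each point sums all kept libraries of a tissue and the line marks the liver ratio. Apoe stands at 10.1, 101 and 6445, and most other points lie between 0.797 and 3.71.

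In hypothalamus Apoe and Apoc1 passed the filter on low counts and the other 8 members did not, with group means of at most 5.47 CPM. Apoe had lower medians in both groups that received PFOS, and the combination passed the test. It ran from 2575 to 4905 CPM with a median of 3043 in combination, from 2917 to 5862 with a median of 3798 in PFOS, from 3407 to 7455 with a median of 5475 in vancomycin and from 2946 to 8107 with a median of 5195 in vehicle hypothalami. All groups overlapped, and the highest levels were in vancomycin and vehicle animals. Apoe fell by 0.71 in combination against vancomycin hypothalami (SE 0.16, adjusted p = 0.00277) and by 0.64 in combination against vehicle hypothalami (SE 0.16, adjusted p = 0.00728). In PFOS against vehicle hypothalami it stood at -0.43 (SE 0.15, adjusted p = 0.0922). In these comparisons 7.82%, 8.14% and 4.37% of 6596 genes were called in either direction, and 4.88% and 5.14% were called lower in the first and second. Apoc1 averaged 148 ± 41 CPM in combination, 135 ± 37 in PFOS, 139 ± 34 in vancomycin and 130 ± 34 in vehicle hypothalami and was not called. For the interaction and vancomycin against vehicle 0 genes (0.0%) were called.

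Depth moved with this result. The mean total was 532574 counts in combination, 700533 in PFOS, 740349 in vancomycin and 905432 in vehicle hypothalami, and log2 CPM of Apoe correlated with log2 depth over 47 hypothalami (Pearson r = 0.635, Spearman rho = 0.656, permutation p = 2e-05 for each, the smallest possible, adjusted 4e-05). With group means taken off r was 0.554, and without the 2 libraries farthest from the median depth it was 0.600. With log2 depth as a covariate the log2 fold change was -0.47 (adjusted p = 0.0677) against vancomycin and -0.25 (adjusted p = 0.522) against vehicle, so neither stayed called. The combination against vehicle call was also lost with a minimum of 500000 counts (-0.51, adjusted p = 0.0853) and with the 4 combination libraries left out whose barcode GC count was unusual (-0.58, adjusted p = 0.0695). Both calls stayed in 47 of 47 fits that left out 1 library each.

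Some other genes of glia and blood also fell in the combination hypothalami. Of 8 astrocyte markers 2 fell in combination against vancomycin, Aldoc at 2926 ± 130 against 3392 ± 245 CPM (-0.27, SE 0.05, adjusted p = 0.000238) and S100b at 3166 ± 272 against 3629 ± 508 CPM (-0.25, SE 0.07, adjusted p = 0.0238). The median of the 8 was -0.18, beside 0.00 over all genes, of which 4.88% were called lower. Of 6 macrophage and microglia markers 1 fell, the complement gene C1qb (-0.57, SE 0.18, adjusted p = 0.0435), and of 5 blood cell markers 1 fell, the globin Hbb (-0.44, SE 0.14, adjusted p = 0.0349). Of 4 other apolipoprotein genes tested 1 fell, Clu, which encodes the brain lipid carrier ApoJ and had 1466 ± 109 CPM in combination and 1604 ± 160 in vancomycin hypothalami (-0.18, SE 0.06, adjusted p = 0.0477). Of 4 genes of HDL and remodelling 1 fell, Pltp, which moves phospholipid between lipoproteins and had 299 ± 40 CPM in combination and 344 ± 40 in vancomycin hypothalami (-0.25, SE 0.08, adjusted p = 0.0278). Of 9 tissue markers 1 fell, the myelin gene Mbp, which had 2364 ± 332 CPM in combination and 3372 ± 954 in vancomycin hypothalami (-0.57, SE 0.14, adjusted p = 0.00581). With log2 depth as a covariate Aldoc (adjusted p = 0.00314), S100b (0.0242) and Clu (0.0377) stayed called, and C1qb (0.114), Hbb (0.209), Pltp (0.1) and Mbp (0.119) did not. The summed astrocyte level ran from 0.689% to 0.829% of counts in combination, 0.713% to 0.959% in PFOS, 0.709% to 0.980% in vancomycin and 0.666% to 0.999% in vehicle hypothalami, with no marker at 0. The part of these cell types in the Apoe result was not tested.

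**Figure D5:**
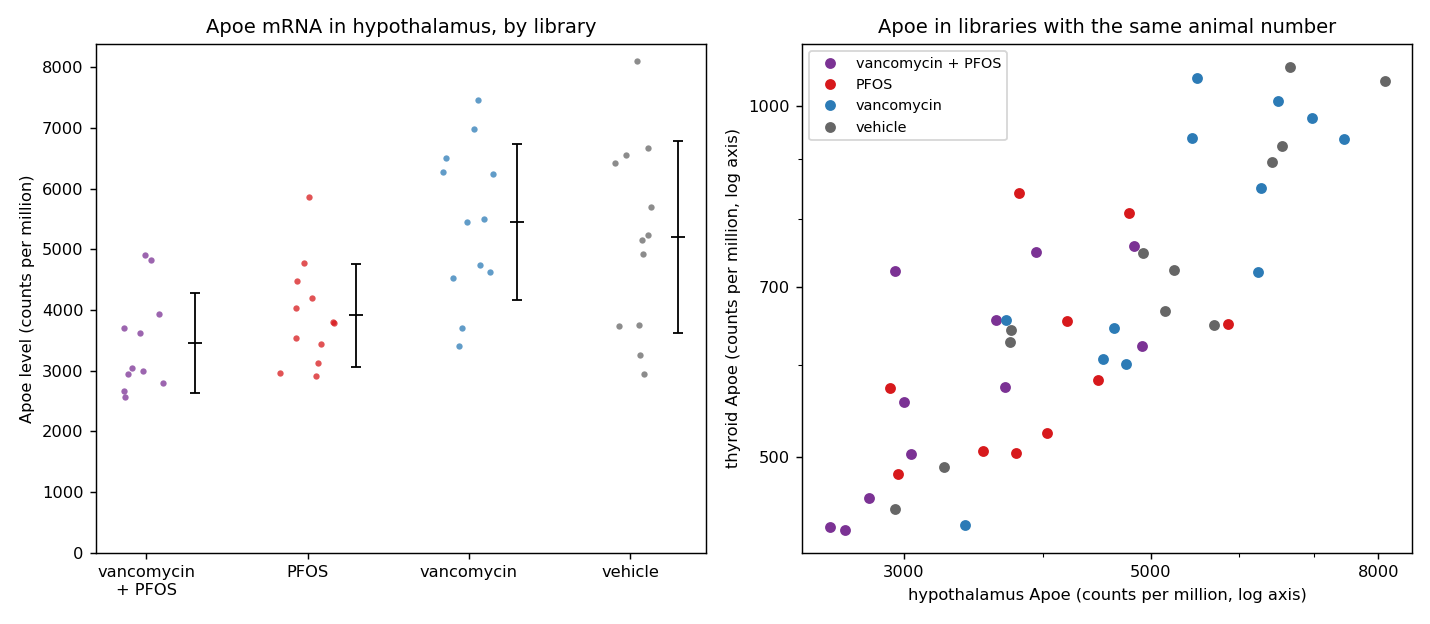
Left, Apoe in hypothalamus in CPM by treatment, with each library as a point and the mean and SD beside it. Right, Apoe in thyroid (vertical, log axis) against Apoe in hypothalamus (horizontal, log axis) for libraries of the same animal number, which rise together with r = 0.830.

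Apoe levels of the same animal number went together in hypothalamus and thyroid, which shared wells and barcodes on their plates. Over 45 pairs log2 CPM of Apoe gave Pearson r = 0.830 and Spearman rho = 0.825 (permutation p = 2e-05 for each, the smallest possible, adjusted 0.00012 over 6 tissue pairs). Without the 2 pairs farthest from the median r was 0.803. Within groups r was 0.731 in combination, 0.476 in PFOS, 0.821 in vancomycin and 0.928 in vehicle pairs. Pituitary and liver, the other tissues that shared wells and barcodes, gave r = 0.525 and rho = 0.479 over 37 pairs (permutation p = 0.001 and 0.00278, adjusted 0.003 and 0.00834). The remaining 4 tissue pairs, which shared neither, had r between -0.158 and 0.162. All genes were ranked on log2 CPM scaled with TMM factors and with a small prior count added, where Apoe had r = 0.846. Among 4474 genes measured in hypothalamus and thyroid, 205 had an r over 0.8 and the median was 0.200, and Apoe was 143rd from the highest. On that scale Apoc1, the neighbour of Apoe on chromosome 1, had r = -0.198. Apoe also correlated with log2 depth in thyroid (r = 0.499, rho = 0.548, permutation p = 0.00036 and 0.00012, adjusted 0.00048 and 0.00016) and in pituitary (r = 0.770, rho = 0.780, permutation p = 2e-05 for each), but not past the threshold in liver (r = -0.0586, rho = 0.112, permutation p = 0.728 and 0.505). Without the 2 libraries farthest from the median depth r was 0.573 in thyroid, 0.790 in pituitary and 0.0525 in liver. The part of depth and of the shared well position in these relations was not tested.

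In thyroid 9 members passed the filter and 0 were called, where 3.24% of 5091 genes were called in combination against vancomycin, 2.79% in combination against vehicle and 0.0589% in PFOS against vehicle. By DESeq2 1 member, Apoe, was called in combination against vancomycin (adjusted p = 0.036), where 0 to 462 genes were called over the alternative settings. By edgeR Apoe was also the 1 member with an unadjusted p under 0.05 in each of the 3 comparisons (p = 0.0032, 0.0138 and 0.0458). The shares above are of adjusted edgeR calls, so these 2 counts of members cannot be set against them. Apoe averaged 600.5 ± 124 CPM in combination, 613 ± 127 in PFOS, 786 ± 200 in vancomycin and 746 ± 202 in vehicle thyroids, and the groups overlapped. Its log2 fold changes were -0.44 (SE 0.14, adjusted p = 0.0695) in combination against vancomycin, -0.36 (SE 0.14, adjusted p = 0.131) in combination against vehicle and -0.30 (SE 0.15, adjusted p = 0.29) in PFOS against vehicle thyroids. Apoa1 had 111 ± 24 CPM in combination, 108 ± 13 in PFOS, 115 ± 18 in vancomycin and 98.3 ± 30.4 in vehicle thyroids. Over the 9 members the medians were -0.09, -0.02 and 0.00, beside 0.02, 0.03 and 0.00 over all genes. Among the other lists the HDL-associated esterase Pon3 rose in combination against vehicle thyroids (0.48, SE 0.14, adjusted p = 0.042) and the transcription factor Foxa2 fell (-0.50, SE 0.15, adjusted p = 0.0474). Mean totals were 378578 counts in combination and 797237 in vehicle thyroids. With log2 depth as a covariate 0 genes were called in that comparison, so neither of these 2 calls stayed.

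In pituitary Apoc3 and Apoe passed the filter and neither was called, where 0.0% of 4380 genes were called in combination against vancomycin, 1.37% in combination against vehicle and 1.19% in PFOS against vehicle. Apoe averaged 341 ± 176 CPM in combination, 308 ± 182 in PFOS, 267 ± 88 in vancomycin and 266 ± 149 in vehicle pituitaries. The highest level of Apoc3 was 158 CPM in combination, 38.9 in PFOS, 35.6 in vancomycin and 39.9 in vehicle pituitaries, and 1, 0, 1 and 1 of 12 libraries were at 0. Vancomycin against vehicle had 0 of these members called, beside 0.0228% of all genes. The other 8 members had group means of at most 16.4 CPM.

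Members under the filter were tested singly by permutation where both groups held at least 50 counts together, which gave 9 tests outside the liver. The smallest p was for Apoc3 in PFOS against vehicle hypothalami, at 1.51 ± 1.62 CPM in PFOS and 4.11 ± 5.16 in vehicle animals (p = 0.0463, adjusted 0.35, two-sided permutation test), and none passed the correction.

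The PFOS effect in liver was set against that in each other tissue in 1 model of both tissues. No member was called against hypothalamus (1.44% of all genes), pituitary (0.0%) or thyroid (1.55%) by edgeR. In hypothalamus and in pituitary 8 members failed the filter alone and entered through liver, so their difference could hardly be tested there. Apoa1 had 14 and 9 counts in all vehicle and PFOS hypothalami, and 22 and 21 in the pituitaries. For Apoa1 the PFOS effect in liver minus that in thyroid was -0.73 (SE 0.22, adjusted p = 0.0717), and with the animal number as a block it was -1.04 (SE 0.24, adjusted p = 0.029), which passed the threshold, in a fit that called 0.379% of all genes.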

How the data were processed

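The authors deposited 1 whole-number count for each gene in each library; totals differ between libraries, so no normalization is apparent. The submitters' processing notes name BWA 0.7.4.4 and the build rn6 but not their use, and other steps are not given in the sources used here. Libraries under 100000 counts were left out, and levels are counts per 1000000 counts of a library (CPM).

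Each tissue was fitted with its 4 treatment groups in R 4.3.3 with edgeR 4.0.16 (filterByExpr with a minimum count of 10, TMM factors, robust quasi-likelihood F test). P-values were Benjamini-Hochberg adjusted over all genes tested, at a threshold of 0.05, and the SE is the fold change divided by the square root of F. Tissues were compared in 1 model. DESeq2 1.42.0 and 7 other settings served as alternatives, and leaving out each liver and hypothalamus library, and depth as a covariate for the other lists, were added after seeing the data. The fit was tested on simulated data. Correlations and single genes used 100000 permutations. RefSeq sequences and gene order are of GRCr8.

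All 10 members are named with their levels in liver, and only some of them in the treatment comparisons of the other tissues. Called genes of the other lists, or else those with the smallest p, are named for some comparisons only. A gene left unnamed is thus not shown to be unchanged. The 3 genes most like a called liver member are also named. Members and lists were chosen with earlier results of these data known. Same-numbered libraries deviated together by r over 0.1 in 45 of 45 pairs for hypothalamus and thyroid only, which also shared barcodes, and liver and pituitary gave 28 of 37.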

Additional observations from a re-analysis of the deposited data

Results flagged for a closer look

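In 4 of 50 groups of 8 to 10 libraries, a gap between 1 library and its neighbours was large for the group's range (Dixon's criterion), where chance gives about 1 in 20. Apoa1 stood at 15318 CPM in the liver of vancomycin animal 16, above the other 9 vancomycin livers. Without that library the fall of Apoa1 in combination against vancomycin livers stayed called. Apoc1 stood at 33018 CPM in the liver of PFOS animal 30 and Apoh at 11606 CPM in that of PFOS animal 27, each the highest of 8. Apoc2 stood at 5336 CPM in the liver of vancomycin animal 21, the highest of 10.

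The 11 liver libraries left out for depth, with totals from 1466 to 28558 counts, still held apolipoprotein counts. The 10 genes took 2.51% to 8.59% of their counts, beside 7.31% to 11.4% in kept livers and at most 0.826% in kept libraries of any other tissue.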

How the results depend on the processing

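The count of members called was recomputed under 8 settings per treatment comparison, 3 per tissue comparison, and without each liver and hypothalamus library. In liver the PFOS against vehicle count of 1 became 0 without a filter, with a 500000 count minimum, with all libraries kept and without unusual barcode GC, and ran from 0 to 1 over left-out libraries (0 without vehicle 3, 4 or 10, PFOS 27, 29, 30 or 34, or vancomycin 21). Combination against vancomycin became 0 with all libraries kept. Combination against vehicle became 0 with the count minimum and with all libraries kept, and 2, adding Apoa4, by DESeq2, with depth as a covariate and without vehicle 8 or combination 39, with a range of 1 to 2 over left-out libraries. In hypothalamus combination against vancomycin became 0 with the depth covariate, combination against vehicle became 0 with that covariate, the count minimum and without unusual GC, and PFOS against vehicle ran from 0 to 1 over left-out libraries (1 without vehicle 8 or 11 or PFOS 25). Among tissues, thyroid against pituitary went to 9 with the count minimum and pituitary against hypothalamus to 8 with library totals. In thyroid combination against vancomycin became 1 by DESeq2 and with the count minimum. With the animal number as a replicate block, the PFOS effect on Apoa1 in liver minus that in thyroid was called, so that count became 1 (beside 0.379% of all genes); the block changed no other count of members. The cause of these shifts was not tested. Counts over all genes in PFOS against vehicle ran from 5 to 36 in liver (27 as reported), 2 to 373 in hypothalamus (288), 0 to 57 in pituitary (52) and 0 to 93 in thyroid (3). In combination against vancomycin they ran from 10 to 39 in liver (30), 121 to 587 in hypothalamus (516), 0 to 2 in pituitary (0) and 0 to 462 in thyroid (165), and in combination against vehicle from 7 to 46 (25), 52 to 620 (537), 0 to 69 (60) and 0 to 309 (142). Higher and lower calls in hypothalamus were 194 and 322 in combination against vancomycin and 198 and 339 in combination against vehicle, but 340 and 247, and 359 and 261, with library totals in place of TMM factors.

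Over the 4 tissues, 45 of 110 uncalled log2 fold changes of members changed sign under at least 1 setting, and 0 of 5 called ones did. Values with a changed sign are given for the members and comparisons described above. In liver PFOS against vehicle, the count minimum gave -0.016 for Apoa2, -0.16 for Apoc1, 0.47 for Apoe and -0.040 for Apoh; all libraries kept gave -0.097 for Apoa2, -0.012 for Apoc1, -0.044 for Apoc3 and -0.13 for Apoh. No filter gave 0.12 for Apoe, and leaving out unusual GC gave 0.28 for Apoe and -0.017 for Apoh. In combination against vancomycin, library totals gave 0.028 for Apob. In combination against vehicle, depth as a covariate gave -0.046 for Apoa5 and 0.046 for Apob, and leaving out unusual GC gave -0.062 for Apoa5, 0.036 for Apob and 0.12 for Apoe. The count minimum gave 0.18 for Apob and -0.0072 for Apoc1, and no filter 0.078 for Apob. For Apoc1 in hypothalamus the depth covariate gave -0.069 in PFOS and -0.18 in combination against vehicle, and against vancomycin DESeq2 gave 0.0082, its size factors 0.00020, library totals 0.049 and all libraries kept 0.014. Apoe with the depth covariate stood at 0.017 in combination against vehicle thyroids, and at -0.029 in PFOS and -0.14 in combination against vehicle pituitaries, where the count minimum gave -0.18 and -0.13.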
